A study of Mus musculus with 12 samples.

Results

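MiR-193 (mmu-miR-193, also miR-193a), miR-193b (mmu-miR-193b) and miR-365 (mmu-miR-365) are 3 of the 375 miRNA assays on a TaqMan low-density array (TLDA) that was run on murine pulmonary endothelial cells. They were chosen by name, because the genes of miR-193 and miR-193b each lie beside a copy of the miR-365 gene, a rule that uses no measured value, although earlier results of these data were known when it was written. Primary endothelial cells had been isolated from the lungs of male wild type C57BL/6N mice aged 6 to 10 weeks, with 3 mice pooled per isolation, by magnetic beads against CD144 and then CD31, and were grown to confluence and serum-starved. There were 4 arrays of unstimulated control cells, 4 of cells stimulated with TD (Tri-DAP), the NOD1 ligand, and 4 of cells stimulated with MDP, the NOD2 ligand, each ligand being given at 10 μg/mL for 6 hours. The arrays are named here by the numbers of their labels, which were 4, 7, 10 and 13 for the control, 5, 8, 11 and 14 for Tri-DAP and 6, 9, 12 and 15 for MDP. The cells were cultured from pooled animals, and the study describes 4 independent experiments, but the labels do not state which arrays belong to the same one.

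MiRNAs are short RNAs that pair with target mRNAs mainly through their seed, bases 2 to 8 from the 5′ end, and lower the stability and translation of these mRNAs. MiR-193a-3p and miR-193b-3p are known to target the mRNA of urokinase-type plasminogen activator, a protease of matrix turnover, and of the anti-apoptotic protein MCL1. MiR-365-3p has been reported to target the mRNA of IL-6, one of the cytokines that NOD ligands induce. A part of the pair of miR-193b and miR-365 in the differentiation of brown fat cells has also been reported.

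The mature sequences are shown because they tell which members can share targets and how closely the assays must discriminate. The files give neither the arm nor the probe of an assay, and the older names without a star were read here as the 3p arms. Sequences are those of RefSeq on GRCm38.p6, printed 5′ to 3′ with the seed in capitals, and all 3 members were matched.
mmu-miR-193a-3p (assay miR-193): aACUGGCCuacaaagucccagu
mmu-miR-193b-3p (assay miR-193b): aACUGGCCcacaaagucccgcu
mmu-miR-365-3p (assay miR-365): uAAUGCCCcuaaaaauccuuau
MiR-193a-3p and miR-193b-3p had the same seed and were identical at 19 of 22 positions. Counted from the 5′ end of miR-193a-3p, miR-193b-3p differed from it by U9C, A20G and G21C. Among the 1679 mature mouse miRNA names in the RefSeq table, these 2 were the only ones with the seed ACUGGCC, and miR-365-3p was the only one with AAUGCCC. The family on the array thus holds 2 seeds, one read by a pair of assays and the other by a single assay.

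The 4 hairpin genes lie on the plus strand at 2 loci of GRCm38.p6. On chromosome 11, Mir193a (chr11:79711969-79712034) and Mir365-2 (chr11:79726400-79726511) were separated by 14.4 kb, and no other annotated gene overlapped either of them. The nearest protein-coding genes there were Rab11fip4 before and Utp6 after the pair. On chromosome 16, Mir193b (chr16:13449523-13449601) and Mir365-1 (chr16:13453840-13453926) were separated by 4.2 kb, and both lay within the bounds of the lncRNA genes Gm32817 and Gm53058, between the protein-coding genes Mrtfb and Parn. Whether they lie in exons or introns of these lncRNAs was not determined here. Both copies of Mir365 give the same mature 3p sequence, so that the miR-365 assay cannot tell the loci apart, whereas miR-193 and miR-193b each stand for a single locus.

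**Figure D1:**
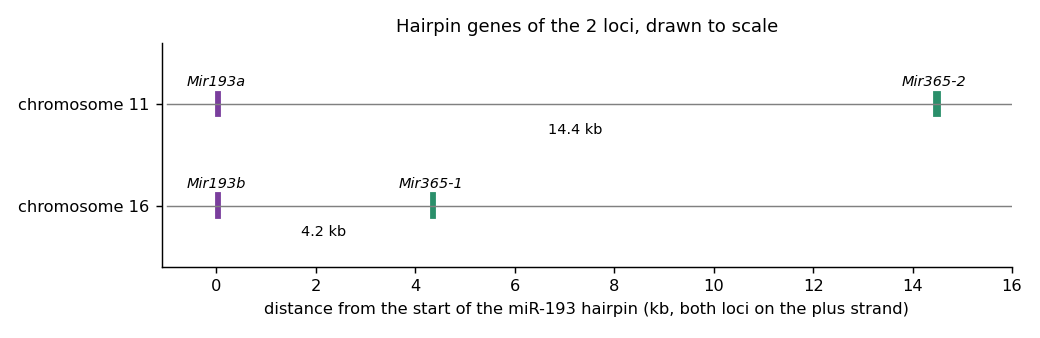
Hairpin genes of the miR-193 and miR-365 family at their 2 loci, drawn to scale, with the distance in kb from the start of the miR-193a or miR-193b hairpin on the x axis. The purple and green boxes mark the miR-193 and miR-365 hairpins, which are 14.4 kb apart on chromosome 11 and 4.2 kb apart on chromosome 16.

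A TLDA reports the PCR cycle at which the fluorescence of a well crosses a threshold (Ct), and more RNA crosses it earlier, each cycle being a factor of 2. A well at 40, the last cycle, is undetermined. The arrays measured between 231 and 254 miRNAs each. The endothelial miRNA miR-126-3p had a Ct between 18.6 and 20.6 and its partner miR-126-5p between 20.1 and 22.4, measured on every array. The mean Ct of U6, the reference RNA of the study, ran from 18.3 on Tri-DAP array 14 to 21.6 on Tri-DAP array 8, and these arrays are named where they bear on a value. The 4 U6 wells of one array also disagreed. Their SD ran from 0.11 on Tri-DAP array 8 to 1.93 on Tri-DAP array 14 and 2.05 on MDP array 12, and levels relative to U6 carry this spread.

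Every one of the 12 arrays gave a Ct for miR-193b (29.1 ± 0.70, mean ± SD) and for miR-365 (28.7 ± 0.39). MiR-193 was much later, at 34.3 ± 1.04 over the 11 arrays that gave a value, and was undetermined on Tri-DAP array 8. In a ranking of the 320 miRNAs seen on any array by their mean Ct, 30.6% came before miR-365, 32.8% before miR-193b and 83.4% before miR-193. MiR-193b and miR-365 are thus in the upper part of the measured profile, and miR-193 is near the limit of detection. Of the 62 other miRNAs with a mean Ct within 1 cycle of that of miR-193, only 6 were measured on all 12 arrays.

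Within single arrays the order of the members was stable at its lower end. MiR-193 was below miR-365 on all 11 arrays, with a log2 difference of -5.53 ± 0.95 (SD) and a range from -7.27 to -4.14. It was also below miR-193b on all 11, with a log2 difference of -5.29 ± 1.56 (SD) and a range from -8.22 to -3.01. MiR-193b and miR-365 did not differ beyond their spread, since miR-193b minus miR-365 was -0.34 ± 0.88 (SD, n = 12) and ranged from -1.36 to 1.05. Assays differ in efficiency, so that differences between miRNAs in Ct are only rough differences in amount.

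The question of the first comparison was whether the NOD1 ligand changes the members. Levels are given as log2 expression relative to U6, the deposited Ct minus mean U6 Ct with the sign turned, and undetermined wells were left out. After Tri-DAP, limma called 0 of the 3 members (threshold 0.05 on the unadjusted p), where 1.69% of the 237 miRNAs tested were called. None of the miRNAs tested passed 0.05 after Benjamini-Hochberg adjustment, in this or in the later comparisons, so the calls are only a background rate. By the methods' t-test, too, 0 of the 3 were called, beside 4 of the 237. In cultured cells, fewer cells of a type and less RNA per cell cannot be told apart in such a level.

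MiR-193 was -15.56, -12.94, -13.68 and -15.38 on control arrays 4, 7, 10 and 13. After Tri-DAP it was -14.41, -15.06 and -17.91 on arrays 5, 11 and 14. Array 14, with the earliest U6, had the lowest value of all, and the other measured Tri-DAP arrays lay within the range of the control. Control arrays averaged -14.39 ± 1.28 (SD, n = 4) and the Tri-DAP arrays -15.79 ± 1.86 (SD, n = 3). MiR-193 thus had a log2 fold change of -1.40 (standard error 0.91, 95% confidence interval -3.39 to 0.58, adjusted p = 0.998 from limma), and the groups did not differ beyond their spread (p = 0.34 in a two-sided exact permutation test, in which p cannot go below 0.057 with 3 against 4 arrays). The interval holds 0 as well as a log2 fold change of -3. Without Tri-DAP array 14 the log2 fold change was -0.34, without Tri-DAP array 5 it was -2.10, and with the array mean as the reference (the mean Ct of 172 miRNAs that no array missed), it was -0.79. With the undetermined well of Tri-DAP array 8 kept at a Ct of 40 in place of being left out, it was -2.05 (95% confidence interval -4.18 to 0.07, limma adjusted p = 0.998). The unadjusted p of that limma fit, 0.057, was the smallest of all alternatives for the members.

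MiR-193b, which shares its seed with miR-193, was -9.44, -9.0, -10.07 and -8.50 on the control arrays in the same order. It was -9.59, -8.16, -10.77 and -9.69 on Tri-DAP arrays 5, 8, 11 and 14. The groups overlapped widely, with the highest and the lowest value both among the Tri-DAP arrays. Its log2 fold change was -0.30 (standard error 0.76, 95% confidence interval -1.94 to 1.34, limma adjusted p = 0.998), with p = 0.66 in the two-sided exact permutation test.

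MiR-365 was -9.59, -7.94, -9.55 and -9.56 in the control and -8.70, -6.80, -10.48 and -10.64 after Tri-DAP. The Tri-DAP values spread beyond the control on both sides, with array 8, whose U6 was the latest, at the top and array 14 at the bottom. The means were the same to 2 decimals, at -9.16 ± 0.81 (SD, n = 4) and -9.16 ± 1.80 (SD, n = 4), which gave miR-365 a fold change of 0.00 on the log2 scale (standard error 0.85, 95% confidence interval -1.83 to 1.83, limma adjusted p = 0.999) and p = 1 in the two-sided exact permutation test. Before normalization, the Ct of miR-365 after Tri-DAP ran only from 28.4 to 29.0. Relative to the array mean, however, it ran from -0.77 to 1.30 after Tri-DAP, with array 8 again the highest. The difference relative to U6 turned to -0.78 when Tri-DAP array 8 was left out and to 0.50 when array 14 was. Relative to U6, the median log2 fold change of all 237 miRNAs was -0.24 after Tri-DAP, against 0.01 with the array mean as the reference. MiR-193b was at -0.30 and -0.07 on these scales.

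**Figure D2:**
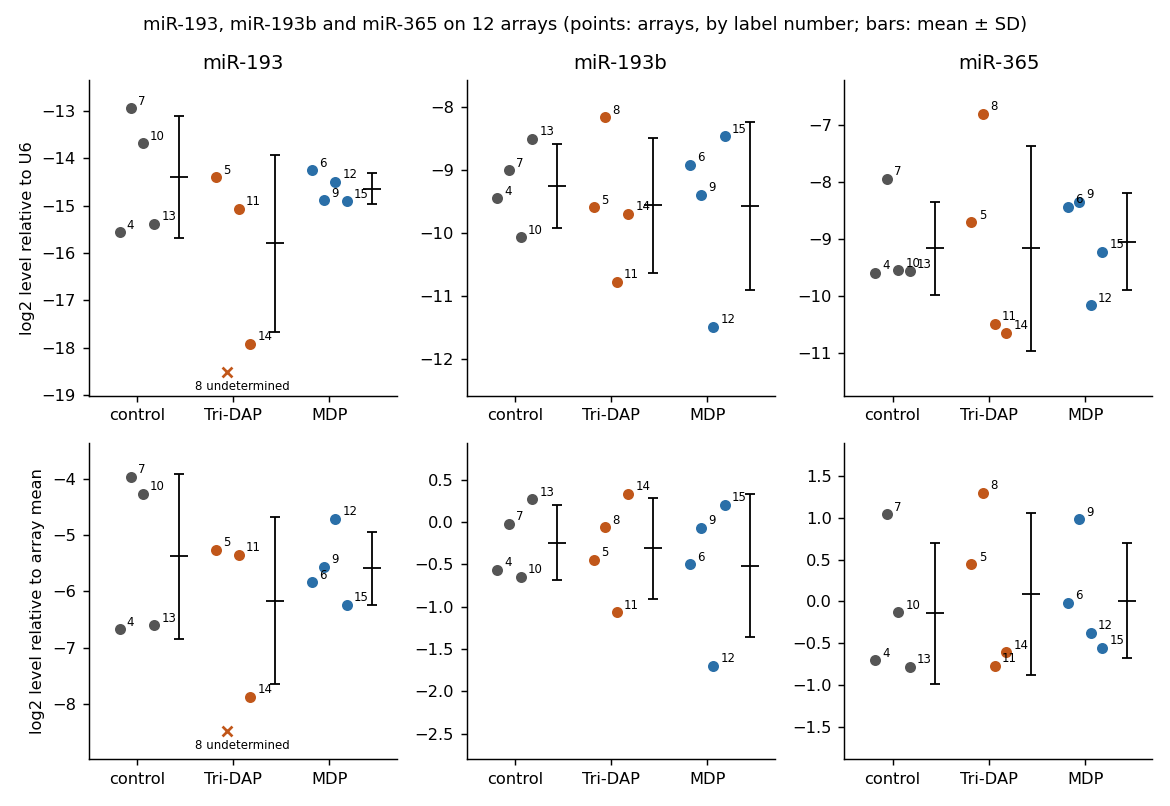
Levels of miR-193, miR-193b and miR-365 on each array, as log2 relative to U6 (upper row) and relative to the array mean (lower row), for control, Tri-DAP and MDP. Points are arrays with their label numbers, bars show mean ± SD of the measured arrays, and the cross marks the undetermined well of Tri-DAP array 8 at an arbitrary height. The groups overlap in every panel. This is not particular to the members, since 0 of the 174 miRNAs measured on all arrays had groups without overlap in each comparison.

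The second comparison asked the same for the NOD2 ligand, against the same 4 control arrays. None of the members was called after MDP (0 of 3 in limma, where 1.23% of 244 miRNAs were called). The methods' t-test also called 0 of the 3, beside 1 of the 244. MiR-193 was -14.25, -14.89, -14.50 and -14.91 on MDP arrays 6, 9, 12 and 15, all within the range of the control. The SD of these 4 values was 0.32 against 1.28 in the control, but 0.65 against 1.47 relative to the array mean and 0.75 against 1.26 in Ct. The log2 fold change of miR-193 was -0.25 (standard error 0.84, 95% confidence interval -2.09 to 1.59, limma adjusted p = 0.9997) and p = 0.71 in the two-sided exact permutation test, and it was 0.24 without control array 7.

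MiR-193b was -8.91, -9.39, -11.48 and -8.46 after MDP. Array 12 was lower than every control array, array 15 was just above the highest one, and the others lay within the range of the control. The log2 fold change of miR-193b was -0.31 (standard error 0.76, 95% confidence interval -1.95 to 1.33, limma adjusted p = 0.9997) and p = 0.83 in the two-sided exact permutation test, and it changed sign, to 0.33, without MDP array 12. MiR-365 was -8.43, -8.34, -10.16 and -9.22 after MDP, with array 12 again the lowest. Relative to the array mean, miR-365 was -0.37 on array 12, and array 15 was the lowest of the MDP arrays at -0.56. Relative to U6, the log2 fold change of miR-365 was 0.12 (standard error 0.85, 95% confidence interval -1.72 to 1.95, limma adjusted p = 0.9997) and p = 0.91 in the two-sided exact permutation test.

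Between the stimulations, limma called 0 of the 3 members and 2.90% of 241 miRNAs. The methods' t-test also called 0 of the members, beside 4 of the 241. MiR-193 had the widest difference, 1.16 higher in MDP than in Tri-DAP on the log2 scale (95% confidence interval -0.84 to 3.15, limma adjusted p = 0.998) and p = 0.29 in the two-sided exact permutation test. The difference in miR-193 was 0.57 relative to the array mean, 0.10 without Tri-DAP array 14 and 1.81 with the undetermined well at 40. MiR-193b and miR-365 differed by -0.01 (95% confidence interval -1.65 to 1.64) and 0.12 (-1.73 to 1.96). The last of these turned to -0.08 with the array mean and to -0.01 without normalization. Over the 9 comparisons of members, the exact permutation p-values were 1 after Benjamini-Hochberg adjustment.

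**Figure D3:**
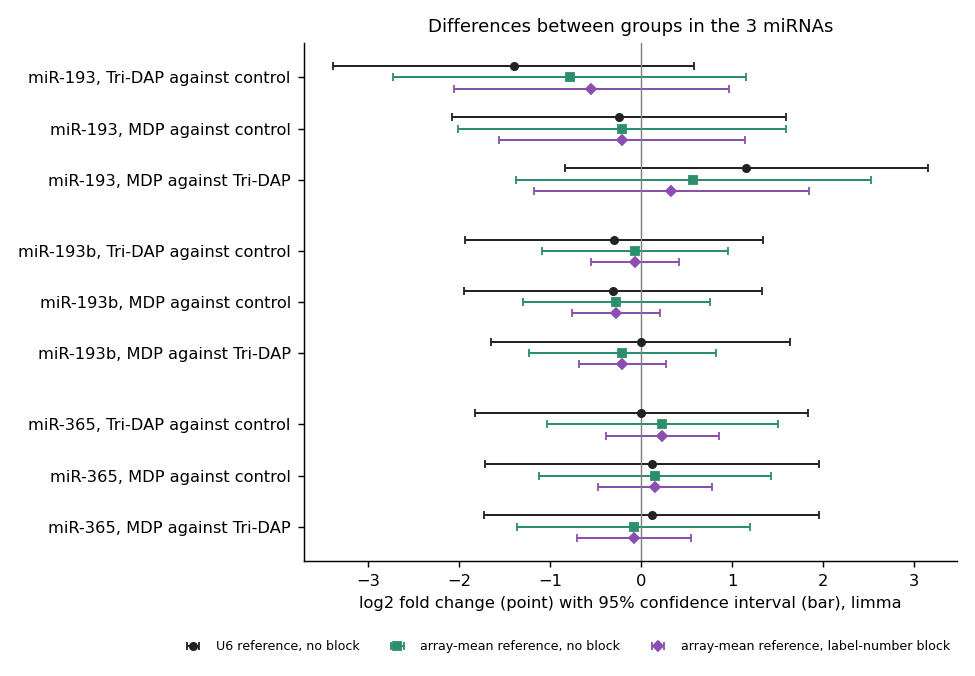
Log2 fold changes of the 3 miRNAs in the 3 comparisons (points) with 95% confidence intervals from limma (bars), relative to U6, relative to the array mean, and relative to the array mean with arrays of consecutive label numbers as a block. All 27 intervals include 0, and for miR-193b after Tri-DAP the interval is -1.94 to 1.34 in the first and -0.55 to 0.41 in the last setting.

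To see whether the members moved apart from each other, differences were taken within each array, where the reference cancels. After Tri-DAP, miR-193 minus miR-365 was -5.85 ± 1.35 (SD, n = 3) against -5.23 ± 0.85 (SD, n = 4) in the control, a shift of -0.62 (standard error 0.89), with p = 0.51 in the exact permutation test, two-sided as in all that follow. MiR-193b minus miR-365, the pair on chromosome 16, shifted by -0.30 (standard error 0.68; exact p = 0.66) after Tri-DAP and by -0.43 (standard error 0.65; exact p = 0.54) after MDP. In the miRNAs with a common seed, miR-193 minus miR-193b shifted by -0.64 (standard error 1.47; exact p = 0.63) after Tri-DAP and by 0.06 (standard error 1.08; exact p = 1) after MDP. None of the 9 such differences passed the test, with adjusted p-values from 0.9 to 1 over these exact permutation tests. With the undetermined well at 40, the shift after Tri-DAP was -2.05 in miR-193 minus miR-365 (exact permutation p = 0.26) and -1.75 in miR-193 minus miR-193b (exact permutation p = 0.31). The standard errors of these shifts, from 0.63 to 1.47, limit what could be seen. These tests took no account of the sets of consecutive label numbers described next, and the standard errors include differences between those sets.

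The label numbers run so that 3 consecutive numbers hold a control, a Tri-DAP and an MDP array, and values of miR-193b relative to the array mean lay together within such sets. Neither the labels nor the methods state these sets. They were used as a block only in alternative fits, and their description here was added after the values had been seen. MiR-193b was between 0.21 and 0.34 on arrays 13, 14 and 15, between -0.06 and -0.02 on arrays 7, 8 and 9, between -0.56 and -0.45 on arrays 4, 5 and 6, and between -1.70 and -0.65 on arrays 10, 11 and 12. These ranges did not overlap, and each holds all 3 treatments. MiR-365 was between 0.98 and 1.30 on arrays 7, 8 and 9, above every other array, and between -0.79 and -0.56 on arrays 13, 14 and 15, where miR-193b was highest. Its other sets were wider and overlapped, from -0.71 to 0.45 on arrays 4, 5 and 6 and from -0.77 to -0.13 on arrays 10, 11 and 12. MiR-193 was between -7.88 and -6.25 on arrays 13, 14 and 15 and between -5.35 and -4.26 on arrays 10, 11 and 12. It ran from -6.68 to -5.26 on arrays 4, 5 and 6 and from -5.56 to -3.96 on arrays 7 and 9, so that its sets overlapped.

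Relative to the array mean, sets of consecutive numbers held 85.4% of the variance of miR-193b over the arrays and treatment groups 4.14%. For miR-365 the shares were 85.1% and 1.74%, and for miR-193, over 11 arrays, 66.9% and 8.34%. The median over the 174 miRNAs measured on all arrays was 68.5% and 4.43%, and 71.8% of them had a smaller share between sets than miR-193b and 71.3% a smaller one than miR-365. Relative to U6 the shares were 70.8% and 2.38% for miR-193b, 74.3% and 0.27% for miR-365, and 42.8% and 23.2% for miR-193, beside a median of 52.5% and 2.94%. Of the marker miRNAs of other cell types, the mural list had sums that did not overlap between sets. The summed log2 level of all 4 mural and fibroblast markers on the array, miR-143, miR-145, miR-199a-3p and miR-214, was between 6.28 and 6.45 on arrays 13, 14 and 15, 3.55 to 3.80 on arrays 10, 11 and 12, 2.28 to 2.75 on arrays 4, 5 and 6, and 1.21 to 1.39 on arrays 7, 8 and 9. The sum of both miR-126 arms was between 8.11 and 8.23 on arrays 13, 14 and 15 and between 9.33 and 10.31 on the others. The 6 epithelial markers were summed at 1.68 to 1.97 on arrays 13, 14 and 15 and at -2.79 to 3.16 on the others, where arrays 4, 5 and 6 alone ran from -0.92 to 3.16. The 4 leukocyte markers were summed at -1.44 to -0.90 and at -0.97 to 0.08, with overlap between sets. Of 4 striated muscle markers 3 were on the array, and their sums ran from -5.51 to 0.97 within arrays 4, 5 and 6 alone. No marker of these 5 lists that was on the array was undetermined everywhere. By treatment, the mural sums ran from 1.21 to 6.45 in the control, from 1.28 to 6.43 after Tri-DAP and from 1.39 to 6.28 after MDP. The muscle sums hold only the wells that were measured. They ran from -6.35 to -3.67 after Tri-DAP (4 arrays), from -3.05 to -0.20 in the control (3 arrays) and from -2.65 to 0.97 after MDP (3 arrays). On the remaining control array and the remaining MDP array no muscle marker was measured, so these ranges leave them out. The markers in the sums also differed, since miR-1 was measured on 2 Tri-DAP arrays and miR-133b on 1 control array only. The groups can therefore not be ordered by the muscle sums. The part of other cell types in the levels of the members was not tested.

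**Figure D4:**
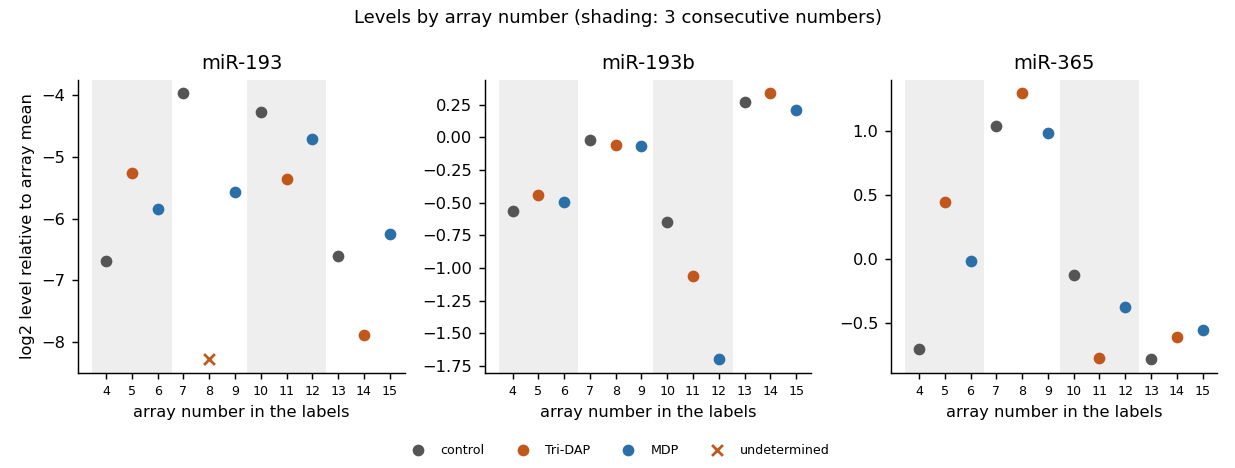
Log2 level relative to the array mean against the array number of the labels, for miR-193, miR-193b and miR-365, coloured by treatment, with every other set of 3 consecutive numbers shaded and the undetermined well of array 8 as a cross at an arbitrary height. In miR-193b arrays 13, 14 and 15 are all between 0.21 and 0.34 whatever their colour, while arrays 10, 11 and 12 spread from -1.70 to -0.65.

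With these sets as a block and U6 as the reference, the log2 fold change of miR-193 was -1.20 after Tri-DAP (95% confidence interval -3.03 to 0.63), and none of the members was called (0 of 3 at an unadjusted p under 0.05 in limma). Of all miRNAs tested in that fit, 9 of 236 were called after Tri-DAP, 6 of 243 after MDP and 8 of 238 between the stimulations. With the array mean as the reference as well, a setting chosen after seeing the data, the intervals became narrower and the calls stayed at 0 of 3 in each comparison (0 also at an unadjusted p under 0.05). Of all miRNAs tested in this setting, 14 of 236 were called after Tri-DAP, 12 of 243 after MDP and 12 of 238 between the stimulations. In both block settings, none of the miRNAs tested passed 0.05 after Benjamini-Hochberg adjustment. MiR-193b then had log2 fold changes of -0.07 after Tri-DAP (95% confidence interval -0.55 to 0.41) and -0.27 after MDP (-0.76 to 0.21), and miR-365 of 0.23 (-0.39 to 0.86) and 0.15 (-0.48 to 0.78). A change of more than 1 cycle lies outside these 4 intervals, whereas miR-193 remained wide, at -0.55 (-2.06 to 0.97) after Tri-DAP and -0.21 (-1.57 to 1.14) after MDP. Set by set, miR-193b after Tri-DAP minus control was 0.12 for arrays 5 and 4, -0.04 for 8 and 7, -0.42 for 11 and 10 and 0.07 for 14 and 13. After MDP, the differences were 0.06, -0.05, -1.05 and -0.06, of which only that of arrays 12 and 10 stood apart. In miR-193, the differences after Tri-DAP were 1.42, -1.09 and -1.27 in the sets where it was measured, and thus did not share a direction. The set left out pairs Tri-DAP array 8, undetermined at 40, with control array 7, which had a Ct of 32.98 and the highest miR-193 level relative to the array mean (-3.96).

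Neighbouring miRNA genes are often transcribed together, and the loci raise the question of whether miR-365 followed miR-193 or miR-193b across arrays. On the array-mean scale miR-365 correlated with miR-193 at Pearson's r = 0.57 (n = 11, permutation p = 0.072, adjusted p = 0.18 over the 3 pairs) and Spearman's rho = 0.62 (permutation p = 0.047, adjusted p = 0.14). With miR-193b it correlated at r = 0.20 (n = 12, permutation p = 0.55, adjusted p = 0.55) and rho = 0.03 (permutation p = 0.94, adjusted p = 0.94). The miRNAs of one seed, miR-193 and miR-193b, gave r = -0.50 (n = 11, permutation p = 0.12, adjusted p = 0.18) and rho = -0.50 (permutation p = 0.12, adjusted p = 0.18). None of the 3 relations passed the adjusted threshold, and none was shown to differ from another. These p-values treat all arrays as independent, although those of consecutive numbers lay together.

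Without control array 7 and Tri-DAP array 14, the farthest from the median of miR-193, r fell to 0.35 for miR-193 with miR-365. It was 0.40 without control array 7 alone and 0.56 without Tri-DAP array 14 alone. Leaving out the farthest values narrows the range of miR-193, which can by itself lower r. For miR-193 with miR-193b, r was -0.62 without the same 2 arrays. For miR-193b with miR-365, r was -0.10 without Tri-DAP array 11 and MDP array 12. Within the sets of consecutive numbers, each centred on its mean, r was 0.61 for miR-193 with miR-365 (permutation p = 0.045, adjusted p = 0.13), 0.21 for miR-193b with miR-365 (permutation p = 0.50) and 0.12 for miR-193 with miR-193b (permutation p = 0.73). These permutations shuffled the centred values over all arrays and took no account of the set means subtracted, so that the p-values can be too small. On the scale relative to U6, in which one U6 value is subtracted from both members, miR-365 correlated at 0.66 with both miR-193 and miR-193b and passed the adjusted threshold (permutation p = 0.029 adjusted over the 3 pairs, for both).

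**Figure D5:**
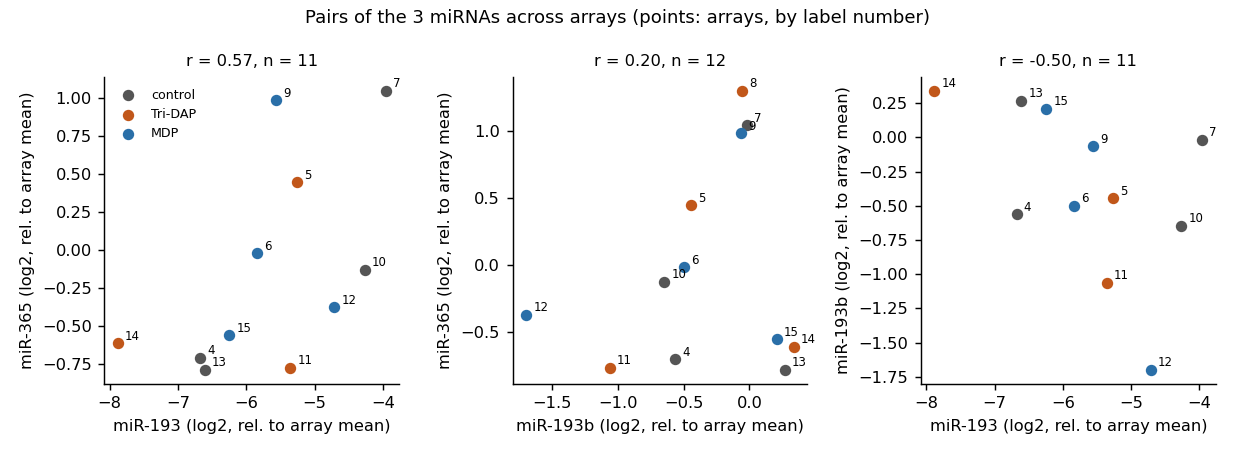
Each pair of the 3 miRNAs across arrays, as log2 level relative to the array mean on both axes, with points coloured by treatment and named by the label numbers. Points rise together for miR-193 and miR-365 (r = 0.57, n = 11), scatter for miR-193b and miR-365 (r = 0.20, n = 12) and fall for miR-193 and miR-193b (r = -0.50, n = 11).

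As a description, 6 other neighbour pairs of single loci gave r from 0.59 (miR-195 and miR-497) to 0.99 (miR-143 and miR-145) on the same scale over 12 arrays, with miR-17 and miR-20a at 0.97, miR-221 and miR-222 at 0.75, miR-106b and miR-93 at 0.69 and miR-99b and miR-125a-5p at 0.65. The correlations of miR-193 and of miR-193b with miR-365, 0.57 and 0.20, were both below this range, the first only just. The pairs are not alike in level, since their assays had mean Ct from 23.6 to 28.4, against 34.3 for miR-193. The miR-365 assay also reads 2 loci. What these differences do to r was not tested. Relative to U6 the 6 pairs ran from 0.85 to 0.99 and both family pairs were at 0.66. With the undetermined well at 40, miR-193 with miR-365 gave r = -0.11 on the array-mean scale. All these points share the array, its mean Ct and the sets described above. Among the miRNAs measured on all arrays, those whose pattern was most like that of miR-193 were miR-10b (r = 0.84), miR-155 (r = 0.82) and miR-126-5p (r = 0.78), over 11 arrays, and miR-365 ranked 32 of 174. Most like miR-193b were miR-210 (r = 0.92), miR-127 (r = 0.86) and miR-434-3p (r = 0.85), over 12 arrays, and miR-365 ranked 48 of 173. Most like miR-365 were miR-191 (r = 0.89), let-7d (r = 0.87) and miR-24 (r = 0.87).

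Beside the family, 12 miRNAs linked to NF-κB signalling or to the Il6 mRNA were counted, all of which were on the array and tested. In the limma fit 0 rose and 1 of 12 fell after Tri-DAP, miR-147, where 1.69% of all miRNAs tested were called. None was called after MDP (0 of 12, beside 1.23% of all) or between the stimulations (0 of 12, beside 2.90%). Their median log2 fold change was -0.18 after Tri-DAP, beside -0.24 over all miRNAs tested and -0.30 over the 3 members, and 0.01 after MDP, beside -0.02 and -0.25. The list was written with earlier results of these data known. It includes miR-147 and miR-298, which the study picked out as lowered on these same arrays. The count for the list is therefore not independent of these data.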

How the data were processed

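RNA of 12 samples was run on 1 TaqMan array each. Per the methods, the authors reverse-transcribed total RNA with a rodent primer pool, ran 40 cycles and set the threshold automatically. They deposited the Ct, in cycles with 40 for undetermined wells, and values normalized to U6. These deposited values are Ct minus the mean of 4 U6 wells, checked to within 5.33e-15, and are on a log2 scale once the sign is turned. The deposited fold changes are the authors' own comparisons and were not used, nor were 12 unnamed columns.

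Assays were matched by name and a six-digit number. All miRNA assays with at least 2 measured values in each group entered lmFit and eBayes (limma 3.58.1, R 4.3.3) without a block, all 12 arrays in 1 fit. The call threshold was 0.05 on the unadjusted p, with Benjamini-Hochberg adjustment over all miRNAs tested beside it. Exact permutation tests were run in scipy 1.17.1, and correlations were tested with 100000 resamples. The fit was tested on simulated data. These were drawn independently for each array, without a shared U6 error or sets of arrays, so they do not show the error rates in the real data. Alternatives covered undetermined wells, a Ct limit of 35, references, measured values required, groups in the fit, the test, a block, and leaving out each array. Named were the members, the 3 most similar miRNAs of each, and fixed lists. Members and lists were chosen with earlier results of these data known. The labels do not tie arrays to the 4 experiments, so p-values measure the spread between arrays only. The number of arrays limits the precision. No 2 arrays shared more than 2 identical measured values.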

Additional observations from a re-analysis of the deposited data

Results flagged for a closer look

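MiR-365 on control array 7 lay far from the other control arrays, at -7.94 on the log2 scale relative to U6, while the nearest of the others was at -9.55. Of 23 groups of 4 arrays examined in this way, 1 was picked out, where chance gives about 1.15 (1 in 20). Relative to the array mean, miR-365 was 1.04 on control array 7, and arrays 8 and 9 of the other groups were at 1.30 and 0.98. Leaving this array out gave miR-365 log2 fold changes of 0.41 after Tri-DAP and 0.52 after MDP, neither of them called by limma.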

How the results depend on the processing

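The 9 comparisons of members were recomputed under 213 alternatives in all. None passed an unadjusted p of 0.05 (p from 0.057 to 0.999, limma or the methods' t-test), 191 kept their direction and 22 reversed. MiR-193 gave no value where a miRNA had to be measured on all arrays. MiR-365 between MDP and Tri-DAP reversed to -0.082 with the array mean, to -0.013 without normalization and to -0.082 with the array mean and consecutive numbers as a block, the last chosen after seeing the data. With a Ct limit of 35, which leaves fewer values of miR-193, miR-193 minus miR-365 reversed to -0.45 between MDP and Tri-DAP, and miR-193 minus miR-193b to 0.26 after Tri-DAP, -0.27 after MDP and -0.52 between them. With undetermined wells at 40, miR-193 minus miR-365 moved to -2.05 after Tri-DAP and to 1.69 between the stimulations, and miR-193 minus miR-193b to -1.75 and 1.81, while the log2 fold change of miR-193 moved to -2.05 and 1.81.

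Without 1 array at a time, the log2 fold changes after Tri-DAP ran from -2.10 to -0.34 for miR-193, from -0.77 to 0.11 for miR-193b and from -0.78 to 0.50 for miR-365. After MDP they ran from -0.64 to 0.24, -0.68 to 0.33 and -0.11 to 0.52, and between MDP and Tri-DAP from 0.10 to 1.85, -0.41 to 0.63 and -0.38 to 0.90. The shift in miR-193 minus miR-365 ran from -1.25 to 0.089 after Tri-DAP and from -0.45 to 0.89 between the stimulations. In miR-193b minus miR-365 the ranges were -0.75 to 0.082 and -0.55 to 0.32, and in miR-193 minus miR-193b they were -1.38 to 0.58 and -0.52 to 1.44, with -0.63 to 0.57 after MDP.

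The correlation of miR-193 with miR-365 was 0.66 relative to U6, past the adjusted threshold, and -0.11 with undetermined wells at 40. That of miR-193b with miR-365 was 0.66 relative to U6, -0.23 without normalization and -0.10 without the 2 farthest arrays. That of miR-193 with miR-193b was 0.011 relative to U6 and 0.12 within sets of consecutive numbers. The causes were not tested. Over all settings limma or the methods' t-test called 1 to 14 miRNAs after Tri-DAP, 0 to 12 after MDP and 0 to 17 between them, against 4, 3 and 7. The groups share no replicate numbers in the labels, and the block of consecutive numbers changed no call of a member. The late Ct of miR-193 limits its precision.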
